A study of Mus musculus with 12 samples.

Results

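The neuropilin, semaphorin and plexin genes described here are 9 genes chosen by name: the coreceptors Nrp1 and Nrp2, the ligands Sema3a, Sema3c and Sema5a, and the receptors Plxna1, Plxna2, Plxnb2 and Plxnd1. They were chosen with earlier results of these data known. All 9 had a value in every sample, out of 13233 genes in the table. They were measured by RNA-Seq in hernia-associated fibroblasts (HAFs), cultured and passaged from the lower abdominal muscle of Aromhum mice, which carry the human gene for aromatase, the enzyme that makes estrogen from androgen. All 12 samples share that genotype and a low-serum medium for 48 h, and no culture from a mouse without the transgene was among them. The 4 groups of 3 samples received vehicle (ethanol and DMSO), 10 nM E2 (17β-estradiol, with DMSO), 10 nM E2 plus 100 nM fulvestrant, or 100 nM fulvestrant alone (with ethanol). Fulvestrant blocks E2 binding to the estrogen receptor ESR1 and lowers the receptor protein. The age of the mice and the number of mice behind the cultures were not given in the sources used here. Nor was what a replicate number stands for. Unless the replicate block is said to be left out, p-values measure the spread left between these samples after differences between replicate numbers are removed. That spread may be technical.

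Semaphorins are secreted or membrane-bound guidance ligands that steer axons, vessels and migrating cells. Class 3 semaphorins are secreted and most of them bind a neuropilin, which has only a short intracellular tail and passes the signal through a plexin, whose intracellular domain acts on small GTPases and, through them, on actin and integrins. Neuropilins also bind VEGF family members and serve as coreceptors for VEGF receptors. In connective tissue, fibroblasts are a source of semaphorins and themselves carry neuropilins and plexins.

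The values are normalized counts, that is, reads per gene divided by a size factor per sample. Between 18827792 and 44040507 reads per sample fell on the genes of the table. As a check of the treatment, Pgr, the progesterone receptor gene and a classical target of ESR1, had 71.7 ± 41.2 normalized counts with vehicle, 239 ± 83.3 with E2, 23.4 ± 7.5 with E2 plus fulvestrant and 16.9 ± 4.3 with fulvestrant (SD, n = 3 each). The fibroblast label was checked against 9 markers, all of which had values. None of 8 myogenic and 4 adipocyte markers had a value here, and 1 of 7 endothelial, 2 of 6 macrophage, 2 of 5 Schwann cell and 4 of 5 mural cell markers did. The replicate 1 samples stood apart from replicates 2 and 3 in all groups, and the groups were therefore compared within replicate numbers. Differences are given on the scale of log2(normalized count + 1), as fitted by limma over all 12 samples with the replicate number as a block. Here "called" means a fold change over 1.2 with a p-value under 0.05 after Benjamini-Hochberg adjustment over all 13233 genes.

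Promoter sequence is shown for 4 of the genes, 3 that fell with fulvestrant and Nrp1, for which no change was called, so that they can be set side by side. Each runs from 250 bases before to 50 bases after the RefSeq transcription start on the plus strand of GRCm38.p6, at chr1:62703067-62703366 for Nrp2, chr5:17574566-17574865 for Sema3c, chr15:32244563-32244862 for Sema5a and chr8:128358823-128359122 for Nrp1. Capitals mark the GC box (GGGCGG, bound by SP family factors) and AGGTCA, the single arm of the estrogen response element, on either strand.
Nrp2: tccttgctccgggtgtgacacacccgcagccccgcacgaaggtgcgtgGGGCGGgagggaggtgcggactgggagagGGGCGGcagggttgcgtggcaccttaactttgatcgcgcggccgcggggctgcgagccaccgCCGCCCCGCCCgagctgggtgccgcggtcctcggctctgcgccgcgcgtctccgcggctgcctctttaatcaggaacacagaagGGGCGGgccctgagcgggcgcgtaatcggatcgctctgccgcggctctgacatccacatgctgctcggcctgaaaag
Sema3c: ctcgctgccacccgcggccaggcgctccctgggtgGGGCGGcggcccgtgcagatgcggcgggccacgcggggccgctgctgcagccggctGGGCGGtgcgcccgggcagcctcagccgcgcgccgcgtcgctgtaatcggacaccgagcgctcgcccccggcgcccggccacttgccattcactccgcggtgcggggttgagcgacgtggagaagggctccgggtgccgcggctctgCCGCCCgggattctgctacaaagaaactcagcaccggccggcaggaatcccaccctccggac
Sema5a: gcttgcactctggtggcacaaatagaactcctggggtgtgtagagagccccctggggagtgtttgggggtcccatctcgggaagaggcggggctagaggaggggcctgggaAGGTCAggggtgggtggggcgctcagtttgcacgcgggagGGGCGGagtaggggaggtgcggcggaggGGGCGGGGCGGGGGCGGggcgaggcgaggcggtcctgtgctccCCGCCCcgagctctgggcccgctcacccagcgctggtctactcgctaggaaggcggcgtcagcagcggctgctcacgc
Nrp1: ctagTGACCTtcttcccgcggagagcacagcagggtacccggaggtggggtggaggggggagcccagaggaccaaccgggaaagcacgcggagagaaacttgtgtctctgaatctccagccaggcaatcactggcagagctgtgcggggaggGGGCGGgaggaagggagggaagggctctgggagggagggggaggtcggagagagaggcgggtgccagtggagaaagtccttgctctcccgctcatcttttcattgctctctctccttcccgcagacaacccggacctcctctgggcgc

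RefSeq promoters were matched for 8 of the 9 genes, and Plxnb2 had a second one. The full estrogen response element, GGTCA and TGACC around 3 free bases, was in none of the windows of these genes and in 0.0701% of all 32817 promoters. The single arm AGGTCA (both strands), which the full element can contain and which occurs in 16.3% of all promoters, was found in Sema5a at -139, in Nrp1 at -246, in Plxnd1 at -103 and in the second promoter of Plxnb2 at -205, counted to the first base of the match from the start base as 0. Of the genes holding it, Sema5a fell with fulvestrant and the other 3 were not called. GC boxes, present in 35.6% of all promoters, numbered 5 in Nrp2, 5 in Sema5a, 3 in Sema3c, 2 in Plxna2 and 0 in Sema3a among the genes that fell, and 4 and 3 in the 2 promoters of Plxnb2, 2 in Plxnd1 and 1 in Nrp1 among those not called. The AP-1 site TGANTCA (7.81% of promoters) and the TATA box TATAAA (13.6%) were not found in these windows. The GENCODE gene starts of Nrp1, Sema3c, Plxna2 and Sema3a lie upstream of their windows, so other start sites are not covered. The gap is largest for Sema3a, whose window (chr5:13396534-13396833) lies well inside the gene.

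With fulvestrant, ligands and receptors of this family fell together in part: all 3 semaphorins, Nrp2 and Plxna2 were lower in the samples with fulvestrant, whereas Nrp1, Plxna1, Plxnb2 and Plxnd1 were not called. In the pooled comparison of the 6 samples with fulvestrant against the 6 without, 5 of the 9 genes were called, all lower, where 7.81% of all genes were called lower, 7.71% higher and 15.5% in either direction. The median log2 difference of the 9 was -0.32, and that of all genes was 0.01. Because the 9 were chosen with earlier results of these data known, the values for all genes give a scale and no test of the set. The 3 largest changes, in Nrp2, Sema5a and Sema3c, were called separately in E2 plus fulvestrant against E2 and in fulvestrant against vehicle, which share no sample (4.62% and 5.69% of all genes called lower). These calls rest on comparing samples of the same replicate number: without the replicate block, 1 of the 9 was called in the pooled comparison (Sema3c, adjusted p = 0.0307), 0 in either single comparison, and the shares of all genes called were 2.34%, 0.521% (E2 plus fulvestrant against E2) and 0.544% (fulvestrant against vehicle). In bulk RNA, fewer cells of a type and less RNA per cell cannot be told apart.

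**Figure D1:**
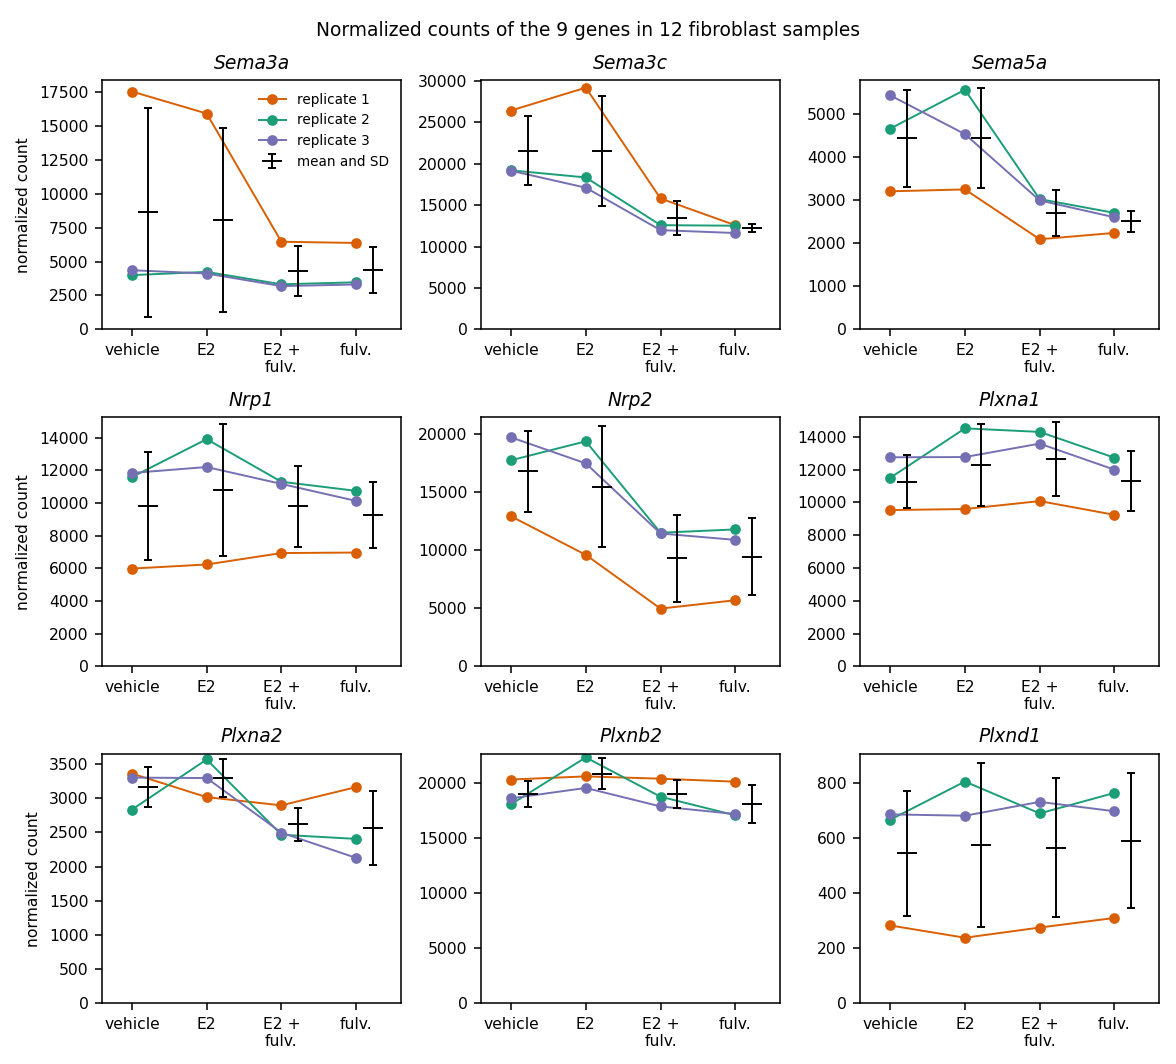
Normalized counts (linear axis from 0) of the 9 genes in each sample, by treatment. Points joined by a line share a replicate number (fulv., fulvestrant), and the black marks are group means with SD (n = 3). Sema3c and Sema5a in the 6 samples with fulvestrant lie below all 6 without, Nrp2 is lower with fulvestrant within each replicate number, and the high Sema3a values are those of replicate 1.

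Among the ligands, Sema3c, a secreted class 3 semaphorin that signals through neuropilins with plexins such as PLXND1, had the highest level per length of the 9 genes with vehicle. Sema3c (ENSMUSG00000028780, chr5:17574281-17730268, GRCm38) had normalized counts of 26404, 19187 and 19139 with vehicle and 29163, 18332 and 17098 with E2 (replicates 1, 2 and 3). With E2 plus fulvestrant it had 15796, 12580.4 and 11978, and with fulvestrant 12576, 12513 and 11633. Every sample with fulvestrant was below every sample without it, a pattern that 2.16% of all genes showed. The log2 difference of Sema3c was -0.65 in E2 plus fulvestrant against E2 (SE 0.11, limma adjusted p = 0.00367) and -0.80 in fulvestrant against vehicle (SE 0.11, adjusted p = 8.7e-04). The pooled log2 difference was -0.72 (SE 0.08, adjusted p = 7.3e-05), so that Sema3c fell by 39.5%. In E2 plus fulvestrant against E2 its call was lost without replicate 2 (-0.70, adjusted p = 0.0540) and without replicate 3 (-0.71, adjusted p = 0.0595).

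Sema5a, a membrane-bound semaphorin with thrombospondin repeats, also separated fully by fulvestrant. Sema5a (ENSMUSG00000022231, chr15:32244810-32696341) had normalized counts of 3202, 4653 and 5425 with vehicle and 3245, 5554 and 4527 with E2. The counts were 2091, 3021 and 2989.5 with E2 plus fulvestrant and 2238, 2701 and 2599.6 with fulvestrant. The log2 differences were -0.70 in E2 plus fulvestrant against E2 (SE 0.10, limma adjusted p = 0.00138) and -0.79 in fulvestrant against vehicle (SE 0.10, adjusted p = 6.2e-04). Pooled, it fell by 40.4% (log2 difference -0.75, SE 0.07, adjusted p = 3.6e-05, and 0.0514 without the replicate block), and the 6 differences within replicate numbers lay between -1.06 and -0.52.

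Sema3a, the founding class 3 semaphorin, which repels axons through NRP1 and A-type plexins, differed more by replicate number than by treatment. Sema3a (ENSMUSG00000028883, chr5:13125414-13602565) had 17505 normalized counts in replicate 1 with vehicle, against 3997 and 4359 in replicates 2 and 3. With E2 the counts were 15887, 4237 and 4117, with E2 plus fulvestrant 6453, 3323 and 3191, and with fulvestrant 6366, 3471 and 3313. Within every replicate number, both samples with fulvestrant were below both without. The pooled log2 difference was -0.68 (SE 0.16, limma adjusted p = 0.00786, and 0.612 without the replicate block), and it was not called in E2 plus fulvestrant against E2 (-0.67, adjusted p = 0.0721) or in fulvestrant against vehicle (-0.69, adjusted p = 0.0574). Without replicate 1 the differences were smaller and called, at -0.33 pooled (adjusted p = 3.1e-04), -0.36 against E2 (adjusted p = 0.00353) and -0.30 against vehicle (adjusted p = 0.00688). Against vehicle the difference was -0.42 without vehicle replicate 1 and -0.44 without fulvestrant replicate 1, neither called. It was called against vehicle without E2 replicate 1 or E2 plus fulvestrant replicate 1, and against E2 without vehicle replicate 1 or fulvestrant replicate 1, with adjusted p from 0.0302 to 0.0429.

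The Sema3a difference with fulvestrant averaged -1.38 in the 2 pairs of replicate 1 and -0.33 in the 4 pairs of replicates 2 and 3, on the log2 scale. For Nrp1 the averages were 0.19 and -0.19, with both pairs of replicate 1 above 0 and all 4 others below, a pattern of opposite signs found in 5.86% of all genes and in none of the other 8. These contrasts were chosen after the values were seen, and replicate 1 is a single set of samples, so they are given with no test.

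**Figure D2:**
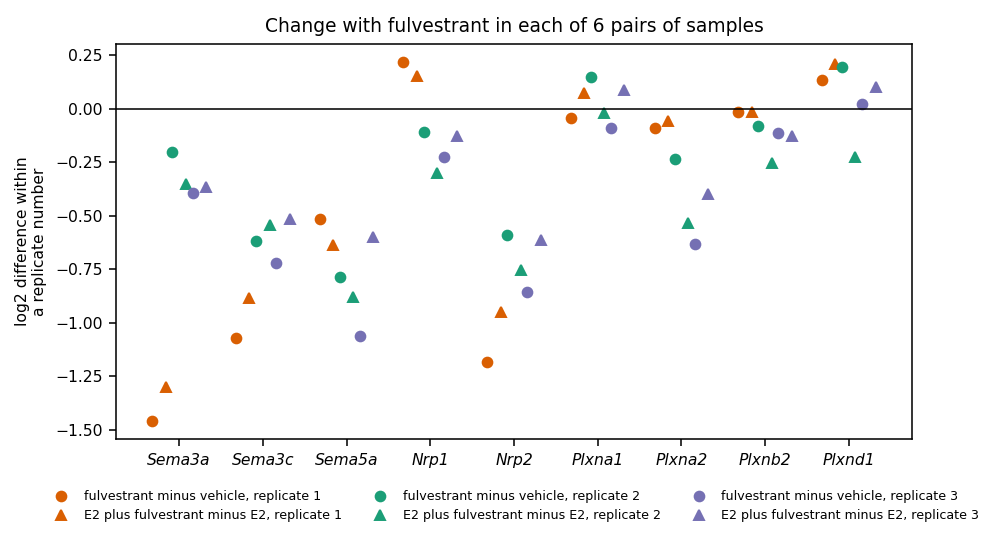
Log2 difference between the sample with fulvestrant and the sample without, within a replicate number (circles, fulvestrant minus vehicle; triangles, E2 plus fulvestrant minus E2; colours, replicate number). All 6 values are below 0 for Sema3a, Sema3c, Sema5a, Nrp2, Plxna2 and Plxnb2, as they are for 12.1% of all genes. The Sema3a values of replicate 1 lie apart from those of replicates 2 and 3.

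Of the coreceptors, Nrp2 fell and Nrp1 was not called. Nrp2 (ENSMUSG00000025969, chr1:62703285-62818695) binds semaphorins such as SEMA3C and SEMA3F and is a coreceptor for VEGFC in lymphatic vessels. It had normalized counts of 12925, 17757 and 19727 with vehicle and 9608, 19387 and 17487 with E2. It had 4979, 11515 and 11449.9 with E2 plus fulvestrant and 5700.2, 11799 and 10898 with fulvestrant. Replicate 1 was the lowest in each group. Every vehicle sample was above every sample with fulvestrant, while E2 replicate 1 lay below replicates 2 and 3 of both fulvestrant groups. Within each replicate number both samples with fulvestrant were below both without. The log2 differences were -0.77 in E2 plus fulvestrant against E2 (SE 0.12, limma adjusted p = 0.00191) and -0.88 in fulvestrant against vehicle (SE 0.12, adjusted p = 7.6e-04). Pooled, Nrp2 fell by 43.5% (log2 difference -0.82, SE 0.08, adjusted p = 4.8e-05, and 0.206 without the replicate block). The study named Nrp2 among genes raised by E2/ESR1 signaling, from ESR1 ChIP-Seq, ATAC-seq and the RNA-Seq used here. Its direction here is therefore not independent evidence. The study also measured Nrp2 RNA in muscle of the mice, where the fall with fulvestrant did not reach significance, and detected it in herniated muscle of men.

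Nrp1 (ENSMUSG00000025810, chr8:128358604-128503363), the main neuropilin for SEMA3A and VEGFA, had normalized counts of 5985, 11582 and 11833 with vehicle and 6235, 13901 and 12197 with E2. It had 6934, 11296 and 11164 with E2 plus fulvestrant and 6966, 10738 and 10123 with fulvestrant. The 4 groups overlapped, and the pooled log2 difference was -0.06 (95% interval -0.21 to 0.08, limma adjusted p = 0.513). Of the differences within replicate numbers, 2 were higher (both in replicate 1) and 4 lower.

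Per length, Nrp2 lay above Nrp1 in the samples without fulvestrant and below it in those with it. Divided by exon length, the ratio of Nrp2 to Nrp1 lay between 1.15 and 1.78 in the 6 samples without fulvestrant and between 0.593 and 0.908 in the 6 with it. The log2 ratio was lower with fulvestrant by -0.76 on average, and by between -1.25 and -0.47 in single replicate numbers. This ratio was chosen after its values were seen and is given with no test. The ratio of Sema3c to Sema3a per length went instead with replicate number, at 2.93 to 4.75 in replicate 1 and 6.82 to 9.32 in replicates 2 and 3.

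**Figure D3:**
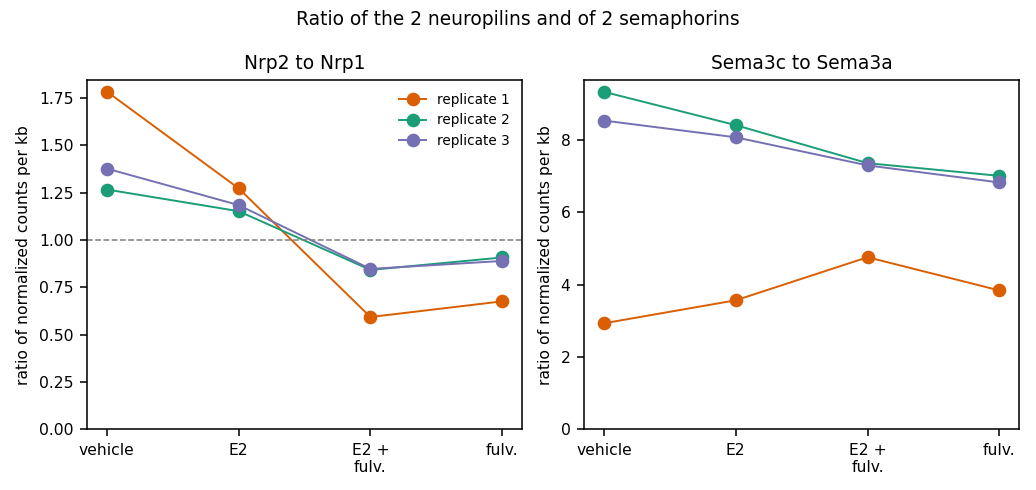
Ratio of normalized counts per kilobase of exon in each sample, for Nrp2 to Nrp1 (left, dashed line at a ratio of 1) and Sema3c to Sema3a (right), by treatment and replicate number. The Nrp2 to Nrp1 ratio is above 1 in the 6 samples without fulvestrant and below 1 in the 6 with it, and the Sema3c to Sema3a ratio is lowest in replicate 1 in each group.

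Of the receptors, Plxna2 alone was called. Plxna2 (ENSMUSG00000026640, chr1:194618218-194816869), an A-type plexin that works with neuropilins and also binds class 6 semaphorins, had normalized counts of 3361, 2834 and 3302 with vehicle and 3016, 3567 and 3296 with E2. It had 2896, 2466 and 2497 with E2 plus fulvestrant and 3163, 2405 and 2128 with fulvestrant. All 6 differences within replicate numbers were negative, as in 12.1% of all genes, between -0.63 and -0.06, with the smaller ones in replicate 1. Pooled, Plxna2 fell by 20.2% (log2 difference -0.32, SE 0.08, limma adjusted p = 0.0138), and it was not called in E2 plus fulvestrant against E2 (-0.33, adjusted p = 0.0943) or in fulvestrant against vehicle (-0.32, adjusted p = 0.0912). The pooled call was lost without replicate 2 (-0.30, adjusted p = 0.113), without replicate 3 (-0.23, adjusted p = 0.173), without fulvestrant replicate 3 (-0.26, a fold under 1.2) and without the replicate block (adjusted p = 0.150). The single comparisons moved both ways. Against vehicle the difference was -0.16 without replicate 3 and -0.19 without fulvestrant replicate 3, and it was called without replicate 1 (-0.44), fulvestrant replicate 1 (-0.46) or E2 replicate 1 (-0.32). Against E2 it was -0.22 without E2 replicate 2, and it was called without replicate 1 (-0.47), E2 replicate 1 (-0.49) or fulvestrant replicate 1 (-0.33).

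The other 3 plexins were not called in any comparison. Plxnb2 (ENSMUSG00000036606, chr15:89155549-89180788, minus strand), a receptor for class 4 semaphorins that also binds angiogenin, ranged from 17103 to 22370.4 normalized counts over the 12 samples. Its 6 differences with fulvestrant were all negative but small, between -0.25 and -0.01, and 12.1% of all genes were lower in all 6 (pooled -0.10, 95% interval -0.21 to 0.01, limma adjusted p = 0.161). Plxna1 (ENSMUSG00000030084, chr6:89316314-89362620, minus strand), the A-type plexin of the SEMA3A and NRP1 complex, ranged from 9241 to 14512, with a pooled difference of 0.03 (95% interval -0.08 to 0.13). Of its exon sequence, 10.7% overlaps Gm26811 on the opposite strand, and the authors counted by strand. Plxnd1 (ENSMUSG00000030123, chr6:115954811-115995005, minus strand), best known in vessels as the receptor for SEMA3E, had the lowest level of the 9, from 239 to 807, with a pooled difference of 0.07 (95% interval -0.08 to 0.23).

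E2 without fulvestrant moved these genes little at 48 h. None of the 9 was called in E2 against vehicle, none had an unadjusted p under 0.05 in limma, and their log2 differences lay between -0.16 (Nrp2) and 0.13 (Plxnb2), with 95% intervals reaching from -0.53 to 0.44, both for Sema3a. In this comparison 10 of all genes were called (0.0756%) and 1340 had an unadjusted p under 0.05. That count moved with the samples used, to 59 without the samples of replicate 1 and to 0 without those of replicate 2 or of replicate 3. Plxna1 and Plxnb2 were higher with E2 in all 6 differences within replicate numbers, vehicle and fulvestrant backgrounds together, as were 3.43% of all genes. In E2 plus fulvestrant against fulvestrant, 0 of all genes were called by limma and 255 had an unadjusted p under 0.05, Plxna1 among them (log2 difference 0.16, 95% interval 0.01 to 0.30, unadjusted p = 0.0378, adjusted p = 1.00). E2 plus fulvestrant was lower than vehicle for 4 of the 9, Nrp2, Sema3a, Sema3c and Sema5a, where 5.66% of all genes were called lower. None of these 4 was called without the replicate block (adjusted p from 0.294 to 0.950), and Sema3c was not called without replicate 3 (adjusted p = 0.0550). The Sema3a call (log2 difference -0.72) was lost without replicate 2 or replicate 3, without vehicle replicate 1 (-0.45) or 3, and without any single library of the other groups except E2 replicate 1 and fulvestrant replicate 1, with adjusted p from 0.0547 to 0.213. It was also lost on only the groups compared (adjusted p = 0.0577) and with no variance trend (adjusted p = 0.0985). Plxna2, not called there, was called on only the groups compared (-0.27, adjusted p = 0.0287) and without replicate 1 (-0.30, adjusted p = 0.0377). Without replicate 1 Sema3a was called at a smaller difference (-0.36, adjusted p = 0.00303). The interaction of E2 and fulvestrant was called by limma for 0 genes, 501 genes had an unadjusted p under 0.05, and none of the 9 was among these. Without the samples of replicate 1, 11 genes were called for the interaction and 4 in E2 plus fulvestrant against fulvestrant. Without E2 replicate 1 alone the interaction was called for 1 gene, and without fulvestrant replicate 1 alone 2 genes were called in E2 plus fulvestrant against fulvestrant, none of them among the 9. These comparisons share samples with those on fulvestrant.

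**Figure D4:**
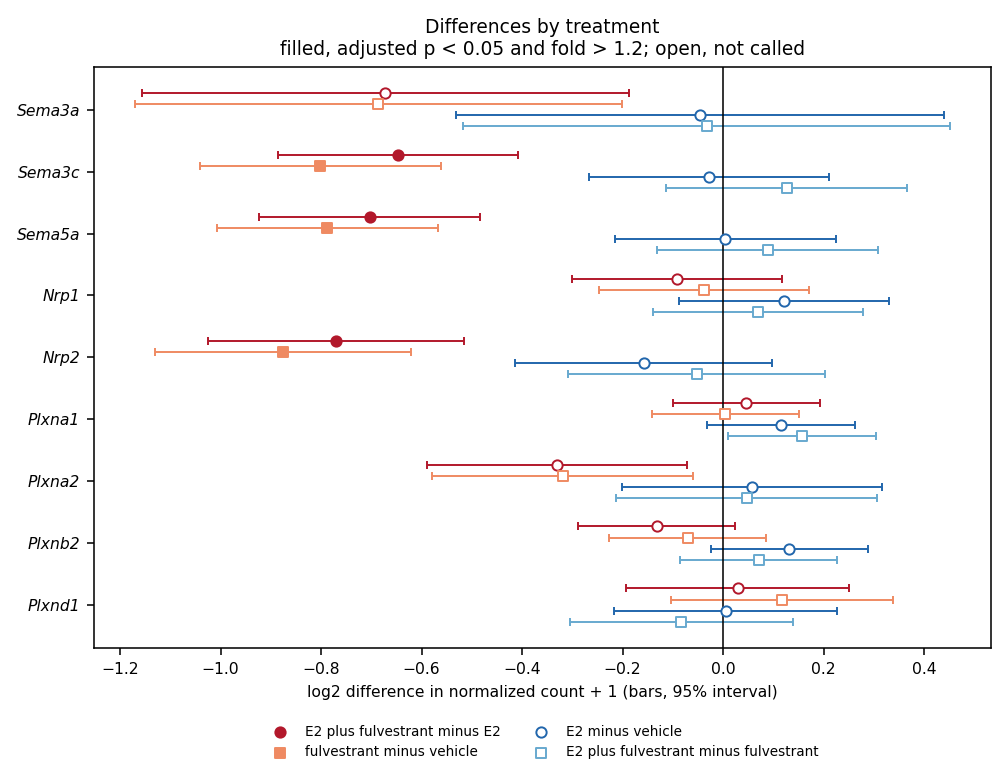
Log2 difference in normalized count + 1 for the 9 genes in 4 comparisons, from the limma fit with the replicate block. Bars are 95% intervals, filled symbols are called and open ones not. Sema3c, Sema5a and Nrp2 are called in both comparisons with fulvestrant (red and orange), and the intervals for E2 (blue) include 0 in all but Plxna1 in E2 plus fulvestrant against fulvestrant.

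Levels per length are compared as normalized counts per kilobase of exon. With vehicle the order of mean levels was Sema3c (3022), Plxnb2 (2466), Nrp2 (1419), Plxna1 (1244), Nrp1 (1002), Sema3a (622), Sema5a (237), Plxna2 (184) and Plxnd1 (74.8). The ranges of neighbours overlapped from Nrp2 down to Plxna2, and were apart for Sema3c and Plxnb2, Plxnb2 and Nrp2, and Plxna2 and Plxnd1. With E2 the means of Sema3c (3016) and Plxnb2 (2703) had overlapping ranges, and Sema3c was the higher in 1 of 3 replicates. With fulvestrant Plxnb2 (2353) lay above Sema3c (1714), and with E2 plus fulvestrant it did as well (2467 and 1884), in 3 of 3 replicates each.

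The 4 samples of replicate 1 did not overlap the 8 of replicates 2 and 3 for 4 of the 9 genes, Sema3a, Nrp1, Plxna1 and Plxnd1. This share is near that of all genes, 45%, and is not particular to these genes. Sema3a was higher in replicate 1 by 1.47 on the log2 scale, while Plxnd1 was lower (-1.37; 239 to 311 normalized counts against 668 to 807), as were Nrp2 (-0.92), Nrp1 (-0.83), Sema5a (-0.51) and Plxna1 (-0.43). What differs between the replicate numbers was not given in the sources used here.

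The fibroblast markers moved with fulvestrant too. The summed normalized counts of the 9 markers were 441148 to 494592 with vehicle, 508043 to 566637 with E2, 363066 to 376933 with E2 plus fulvestrant and 330723 to 395080 with fulvestrant, and 6 of the 9 were called lower in the pooled comparison (7.81% of all genes), 1 of them (Esr1) also without the replicate block. Esr1, one of them, had 348 ± 146 normalized counts with vehicle, 550.2 ± 84.2 with E2, 126 ± 77.5 with E2 plus fulvestrant and 133 ± 77.8 with fulvestrant (SD, n = 3). The mural markers with values, Cspg4, Myh11, Mcam and Notch3, summed to 2269 to 3617 without fulvestrant and 2042 to 4528 with it, the 2 Schwann cell markers to 159 to 223 and 112 to 171, the 2 macrophage markers to 90.7 to 389 and 131 to 188, and the endothelial marker Tek to 58.4 to 277 and 70.6 to 259. Their part in the differences of the 9 genes was not tested.

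Beyond the 9 genes, the rest of the family and its partners moved in both directions with fulvestrant. Of 13 other semaphorins with values, 4 were called lower and 2 higher in the pooled comparison (median log2 difference -0.11, against 0.01 for all genes, of which 7.81% were called lower and 7.71% higher). The largest falls were in the membrane-bound Sema6a (-1.04, limma adjusted p = 0.00143), Sema4d (-0.54, adjusted p = 0.00142) and Sema6c (-0.53, adjusted p = 0.00207). The rises were in Sema7a, a GPI-anchored ligand that binds integrins (0.72, adjusted p = 0.0187), and Sema4b (0.35, adjusted p = 0.00419). Of these 5, Sema4d was also called without the replicate block. Among 6 other plexin genes, Plxna4, an A-type plexin (-0.84, adjusted p = 0.0325), and Plxdc2, a plexin domain protein that is not itself a semaphorin receptor (-0.38, adjusted p = 6.7e-05), were called lower and none higher (median -0.28). Both calls were lost without the replicate block (adjusted p = 0.281 and 0.875).

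The 10 other coreceptors and VEGF ligands with values included 3 called higher and 1 lower (median 0.20). Nrcam, an adhesion molecule of the neuropilin complex in neurons, was higher (0.94, limma adjusted p = 0.00110), as were Flt4, the VEGFC receptor (0.51, adjusted p = 0.0103), and Vegfa, a ligand of NRP1 (0.32, adjusted p = 0.00693). Ptk7, a pseudokinase coreceptor in Wnt signalling, was lower (-0.41, adjusted p = 3.6e-05), and it was also called without the block, unlike the 3 that were higher. For all genes these shares were 7.71% higher and 7.81% lower. Of 32 intracellular transducers, 5 were called higher and 2 lower, with a median of 0.04, where 15.5% of all genes were called in either direction. The higher ones included the actin monooxygenase gene Mical2 (0.62, adjusted p = 7.4e-06), Rnd1 (0.62, adjusted p = 0.0444) and the cofilin kinase gene Limk1 (0.59, adjusted p = 7.3e-06), and the lower ones were Rnd3 (-0.56, adjusted p = 0.00209) and Dpysl3, a collapsin response mediator (-0.49, adjusted p = 0.00113). Of these 5, Mical2 and Rnd3 were also called without the block. For the neuropilin adaptor gene Gipc1 the log2 difference was -0.03 (adjusted p = 0.674), not called.

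**Figure D5:**
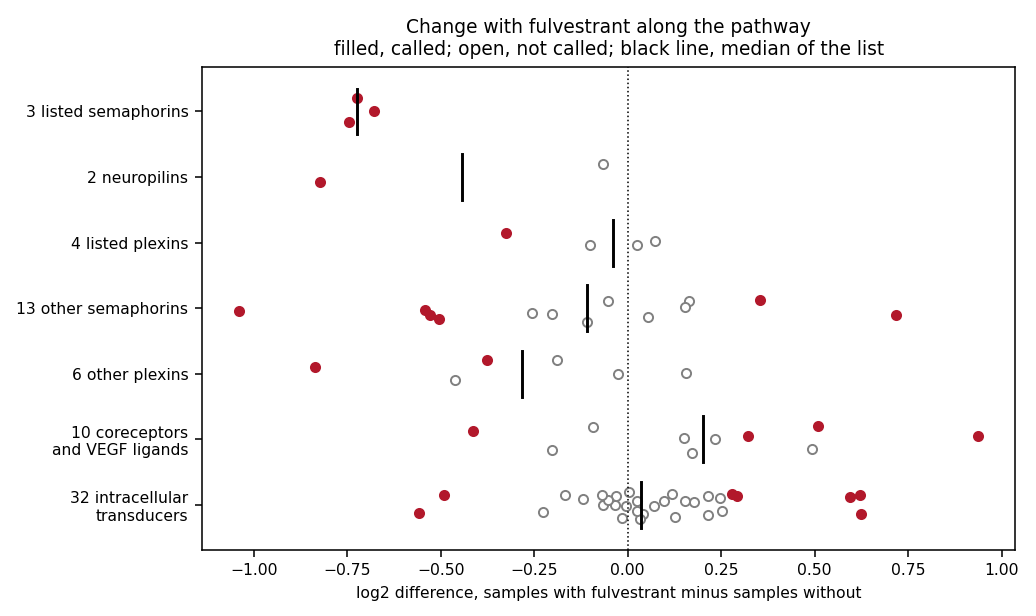
Log2 difference between the 6 samples with fulvestrant and the 6 without, for the 9 genes by role and for 4 lists of related genes. Each point is a gene, filled where called, and black lines are list medians. The 3 listed semaphorins all lie below 0 and are called, as does Nrp2, while the listed plexins and the 4 other lists reach to both sides of 0.

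Over the 12 samples, each centred on its replicate number, the genes with profiles closest to Nrp2 were Pak3 (Pearson r = 0.995), Prrx1, Myo6, Abi3bp and Tenm3 (r = 0.991). Those closest to Nrp1 were Anpep (r = 0.959), Vwa5a, Tbc1d9b, Birc3 and Fig4 (r = 0.939). Nrp2 itself had r = 0.920 with Sema3c, 0.902 with Sema5a, 0.897 with Sema3a and 0.122 with Nrp1. These are descriptions over samples that share treatments, so genes that fell with fulvestrant score high with each other.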

How the data were processed

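RNA-Seq of 12 HAF samples was analyzed. Per the methods of the study, reads were trimmed with Trimmomatic 0.39, freed of ribosomal reads, aligned to mm10 with STAR 2.5.2 and counted by gene and strand with HTSeq 0.13.5. The authors dropped counts under 10 and scaled samples by DESeq2 1.37 (median of ratios). The deposited file holds these normalized counts, a signal for each gene in each sample. Within 0.01, 100% of the values were whole reads times a factor per sample, so the depth is known (18827792 to 44040507 reads on the genes of the table). The intervals given cover the spread between samples that is left after differences between replicate numbers are removed. The lowest value was 8.27. No count test was run. The number of value columns not used was 0.

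Log2(normalized count + 1) was fitted by limma 3.58.1 in R 4.3.3 (eBayes with a variance trend, replicate number as a block), and each contrast was adjusted by Benjamini-Hochberg over 13233 genes. The study reduced batch variation seen in its principal component analysis, without naming the batches in the sources used here. Using the replicate number as the block was a choice made here. Over 18 pairs of same-numbered samples in different groups, deviations from group means correlated at 0.63 to 0.92 (mean 0.76). The 6 pairs within replicate 1 had a mean of 0.88. Replicates 2 and 3 of different groups also correlated (0.63 to 0.79, mean 0.71), and replicate 1 with either did so negatively (-0.86 to -0.71). These values set replicate 1 apart but cannot show that replicates 2 and 3 are each paired across groups. That pairing was taken from the sample numbers. Of 13233 identifiers, 13149 matched a symbol in GENCODE M21 (GRCm38). Promoters are those of RefSeq on GRCm38.p6. Tables and plots were made in Python 3.11.15 (pandas 2.3.3, numpy 2.4.6, matplotlib 3.10.9).

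The 9 genes and all lists were chosen with earlier results of these data known. From each other list at most 3 genes in each direction were named, those called with the largest pooled difference, along with the 5 genes closest to each neuropilin, and Pgr and Esr1. Gipc1 was named after its value was seen. Alternatives were no replicate block, other pseudocounts, filters on low values, quantile and CPM scaling, no variance trend, adjusted p alone, only the groups compared, and leaving out samples.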

Additional observations from a re-analysis of the deposited data

Results flagged for a closer look

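Nrp1 was higher with fulvestrant in both pairs of replicate 1 and lower in the 4 pairs of replicates 2 and 3, and its average log2 difference was 0.38 higher in replicate 1. This pattern was noticed in the values, rests on a single set of samples for replicate 1, and the difference was not tested. Opposite signs of this kind were found in 5.86% of all genes.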

How the results depend on the processing

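The replicate block decides most calls. Without it, 0 of the 9 genes were called in E2 plus fulvestrant against E2, 0 in fulvestrant against vehicle, 0 in E2 plus fulvestrant against vehicle and 1 in the pooled comparison (3, 3, 4 and 5 with it), with the same log2 differences and wider errors. Quantile normalization gave 5 called genes in fulvestrant against vehicle, adding Sema3a and Plxna2. Leaving out samples gave 2 to 5 called genes in E2 plus fulvestrant against E2 (5 without replicate 1 and without fulvestrant replicate 1), 3 to 5 in fulvestrant against vehicle (5 without replicate 1 and without E2 replicate 1), 4 to 5 in the pooled comparison and 2 to 5 in E2 plus fulvestrant against vehicle (2 without replicate 3). E2 against vehicle, E2 plus fulvestrant against fulvestrant and the interaction had 0 called of the 9 under every alternative run. Under the other alternatives the number of the 9 genes called stayed within 1.5 times that reported. Counts over all genes moved further: in E2 against vehicle, 10 genes as reported became 0 to 59 with samples left out (4 without E2 replicate 2, 2 without E2 replicate 3, 18 without fulvestrant replicate 1), 57 on only the groups compared, 3 with no variance trend and 1 without the block. With samples left out, 316 to 1611 genes were called in E2 plus fulvestrant against E2 (1270 as reported), 399 to 2312 in fulvestrant against vehicle (1648), 1335 to 2332 pooled (2054) and 541 to 1916 in E2 plus fulvestrant against vehicle (1681), lowest without replicate 3 in each. A fit on only the groups compared was not possible for the pooled comparison and the interaction, which use all 4 groups. Over all genes, CPM scaling gave 688 called higher and 951 lower in fulvestrant against vehicle (895 and 753 as reported), 682 and 957 in E2 plus fulvestrant against vehicle (932 and 749), 574 and 673 in E2 plus fulvestrant against E2 (658 and 612) and 834 and 1115 pooled (1020 and 1034). By adjusted p alone 3752 genes were called pooled, 2100 higher and 1652 lower.

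Sign changes in the comparisons with fulvestrant were confined to genes near 0 that were not called. With samples left out, Nrp1 lay between -0.21 and 0.013 in E2 plus fulvestrant against E2, -0.17 and 0.055 in fulvestrant against vehicle, and -0.19 and 0.0048 pooled. Plxnd1 lay between -0.087 and 0.15 against E2, and Plxna1 between -0.081 and 0.051 against vehicle and between -0.017 and 0.056 pooled. Plxna1 was -0.063 against vehicle under quantile normalization and -0.035 under CPM, and pooled -0.011 and -0.0019. In the other 4 comparisons, 74 of 891 values of single genes under alternatives changed sign. The lowest of the 9 genes, Plxnd1, had 239 normalized counts in its lowest sample.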
